A study of Mus musculus with 6 samples.

Results

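The genes that make cholesterol and fatty acids, 32 in all, were compared between Emcn-/- and Emcn+/+ retinas. They were taken from the deposited table by gene symbol, and all 32 were found among its 28627 genes. All 32 also passed the filter on low counts that left 16681 tested genes. The list holds 7 genes of the mevalonate steps, 11 of the squalene and sterol ring steps, 5 that regulate the pathway or move sterols, and 9 of fatty acid synthesis, elongation and desaturation. The Emcn-/- group (n = 3 libraries) was retina of pups homozygous for loss of Emcn, the gene of endomucin, a mucin-like glycoprotein of the endothelial surface coat. The Emcn+/+ group (n = 3) was retina of their wild-type littermates. All 6 libraries came from postnatal day 15 pups of the oxygen-induced retinopathy model, in which pups are raised for some days in high oxygen and then returned to room air, so both genotypes carry the effect of the model and no library shows the pathway without it. The labels name neither the strain nor how the allele was made, and do not say whether each library is a separate animal, so p-values measure the spread between these libraries.

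Cholesterol is built from acetyl-CoA through mevalonate and isoprenoid units to squalene, which is closed into a ring and trimmed to the final sterol. Fatty acids are built from malonyl-CoA by fatty acid synthase, then lengthened and desaturated. Both sets of enzymes are driven by the Srebf transcription factors, which the escort protein Scap carries to the Golgi for cleavage when sterols are scarce, and which Insig proteins hold back in the endoplasmic reticulum when sterols are plentiful. The retina makes much of its own cholesterol, with Müller glia as a main source, and its photoreceptor membranes are rich in long polyunsaturated fatty acids.

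The promoters of 4 members are shown because the results below turn on these genes: Hmgcs1 and Insig1 for the sterol branch, and Fasn and Elovl6 for the fatty acid branch. Each is the run of bases just before the RefSeq start site in GRCm38.p6, written in the direction of transcription. The windows are chr13:119690101-119690350 on the plus strand for Hmgcs1, chr5:28071162-28071411 on the plus strand for Insig1, chr11:120824548-120824797 on the minus strand for Fasn and chr3:129532136-129532385 on the plus strand for Elovl6. The Elovl6 window holds neither motif searched. In the others, capitals mark the letters CCAAT on either strand (ATTGG where it lies on the reverse strand) and, in Hmgcs1, the sterol regulatory element core TCACNCCAC.
Hmgcs1: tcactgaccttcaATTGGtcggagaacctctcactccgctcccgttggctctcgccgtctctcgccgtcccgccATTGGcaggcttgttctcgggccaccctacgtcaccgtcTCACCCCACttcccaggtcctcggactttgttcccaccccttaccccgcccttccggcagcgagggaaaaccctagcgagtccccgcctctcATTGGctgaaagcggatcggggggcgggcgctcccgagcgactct
Insig1: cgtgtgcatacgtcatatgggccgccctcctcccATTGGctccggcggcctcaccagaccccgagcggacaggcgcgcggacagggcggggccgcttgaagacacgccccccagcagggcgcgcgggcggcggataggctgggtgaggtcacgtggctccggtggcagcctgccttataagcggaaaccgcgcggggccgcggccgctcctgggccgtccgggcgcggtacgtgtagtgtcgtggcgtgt
Fasn: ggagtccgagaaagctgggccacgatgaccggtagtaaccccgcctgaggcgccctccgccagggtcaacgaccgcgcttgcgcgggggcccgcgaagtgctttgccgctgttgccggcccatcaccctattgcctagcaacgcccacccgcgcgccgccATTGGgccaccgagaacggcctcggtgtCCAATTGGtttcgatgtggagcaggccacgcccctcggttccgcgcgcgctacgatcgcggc
Elovl6: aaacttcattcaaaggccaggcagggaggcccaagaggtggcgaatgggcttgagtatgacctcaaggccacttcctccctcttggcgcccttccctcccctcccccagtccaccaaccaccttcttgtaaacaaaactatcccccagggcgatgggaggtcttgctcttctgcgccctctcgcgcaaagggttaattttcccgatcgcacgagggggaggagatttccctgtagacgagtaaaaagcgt

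CCAAT is the box bound by NF-Y, a factor known to act beside Srebf proteins on sterol gene promoters. Windows from 250 bases before to 50 after the start were found for 25 of the 32 members, and 20 of these 25 members (80.0%) held a CCAAT on either strand, against 41.06% of the 27025 genes with a window in the table. The match was present in 9 of 9 squalene and sterol ring genes with a window, 5 of 6 mevalonate genes, 3 of 4 regulators and 3 of 6 fatty acid genes. The 5 members without it were Acat2, Scap, Acaca, Elovl6 and Fads2. The core TCACNCCAC was found in 1 of 25 members, Hmgcs1, whose match TCACCCCAC starts 137 bases before the start site, against 1.44% of all genes. The letters describe these windows only, and no library here measured binding. In Hmgcs1 the core and the CCAAT matches do not overlap.

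Per kb of annotated exon, the members spanned a wide range of levels. Scd2, a stearoyl-CoA desaturase that makes monounsaturated fatty acids, was highest at 1289 ± 106 normalised reads per kb in Emcn-/- and 1295 ± 159 in Emcn+/+ retinas (SD, n = 3 each). Acly, which makes cytosolic acetyl-CoA from citrate, followed at 973 ± 20.6 and 972 ± 27.9. The range of Acly over the 6 libraries did not overlap that of Scd2 above it or that of Fads2, the delta-6 desaturase, below it (488 ± 18.7 per kb in Emcn-/- and 451 ± 26.9 in Emcn+/+). From Fads2 down to Lss, each gene overlapped the next one in the order, so the middle of the order is not resolved. At the low end stood Hsd17b7, Scd1, Tm7sf2 and Fdps. Scd1 was at 37.3 ± 4.79 per kb in Emcn-/- and 36.5 ± 5.01 in Emcn+/+, so the ratio of Scd2 to Scd1 per length was 34.8 ± 3.19 and 35.6 ± 3.73. The 2 desaturase genes lie on chromosome 19, with Scd4 between them, and share 623 exonic bases at 95.5% identity, so some reads could have been given to the wrong one. Srebf1 and Srebf2, the fatty acid and sterol branches of the transcription factor pair, were close, with a per-length ratio of Srebf2 to Srebf1 of 0.871 ± 0.0626 in Emcn-/- and 0.963 ± 0.144 in Emcn+/+.

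**Figure D1:**
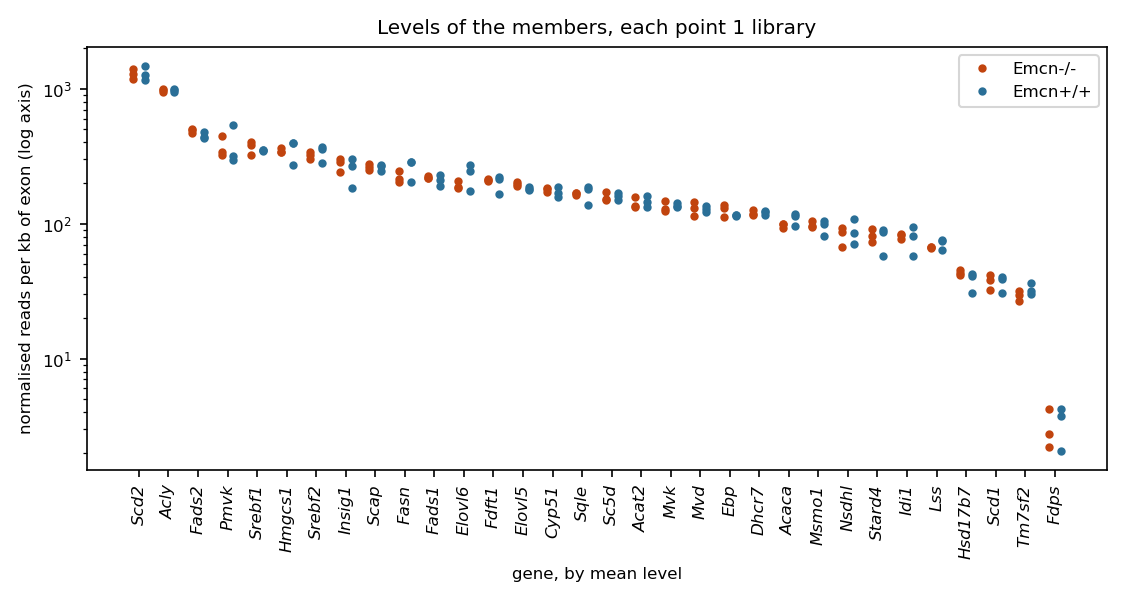
Normalised reads per kb of exon (log axis) for the 32 members in order of mean level, with 3 points per genotype, Emcn-/- on the left. Scd2 and Acly stand above the rest, and Fdps lies far below at 3.05 ± 1.03 per kb in Emcn-/- and 3.34 ± 1.11 in Emcn+/+ (SD, n = 3 each).

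Fdps, the farnesyl diphosphate synthase gene, had 11.7, 17.6 and 9.24 normalised reads in Emcn-/- against 17.6, 15.8 and 8.74 in Emcn+/+ libraries. These are low values for a central enzyme of the pathway. Of its exonic bases 26.7% are shared with a gene on the same strand, Gm43738, and 4 other genes carry a near-identical copy, the longest in Gm5873 (96.7% over 1066 bases), so its value is uncertain. Among other members with a near-identical copy elsewhere were Acaca, whose longest copy lies in Gm5182 (99.2% over 6118 bases), Acat2, with Acat3 (97.7% over 1477 bases), Fdft1, with Gm6781 (97.4% over 1249 bases), Elovl6, with Gm11295 (97.4% over 805 bases), and Idi1, with Gm13502 (identical over 684 bases). Shorter copies, the longest of 203 and 227 bases, were found for Msmo1 in 10 and Dhcr7 in 22 other genes. Tm7sf2 shares 12.1% of its exonic bases with Vps51 on the same strand. On the opposite strand Fdft1 overlaps Ctsb (18.3% of exonic bases), Scap overlaps 5830462I19Rik (13.2%) and Hmgcs1 overlaps Gm48342 (12.1%). Reads of such partners cannot be told apart if the libraries do not keep strand.

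As a check of the genotype, Emcn had 1.95, 1.04 and 4.62 normalised reads in Emcn-/- libraries against 93.3, 80.6 and 100.5 in Emcn+/+ libraries. It fell by 4.83 on the log2 scale (SE 0.40, limma adjusted p = 0.0143) and was the 1 gene called over all tested genes (0.00599% of 16681). Leaving out Emcn+/+ replicate 1, Emcn+/+ replicate 2 or Emcn-/- replicate 1 ended that call (adjusted p = 0.0924, 0.191 and 0.154), while its log2 fold change stayed between -5.23 and -4.50 with each library left out in turn. The tissue was retina by its rod genes: 9 rod markers summed to 172173 to 183307 normalised reads per kb in Emcn-/- and 156947 to 166970 in Emcn+/+ (exact permutation p = 0.1, two-sided, the smallest that 3 against 3 allows). Markers of the pigment epithelium behind the retina summed to 4149 to 5729 per kb in Emcn-/- against 1685 to 3480 in Emcn+/+ (exact permutation p = 0.1, two-sided). The part of either in the values below was not tested. Whether a lower value means fewer cells of a type or less RNA per cell cannot be told apart in whole retina. Emcn+/+ replicate 3 was the 1 library with reads typical of a female, and Emcn+/+ replicate 3 and Emcn-/- replicate 3 carry title numbers that lie apart from those of the other 4 libraries. The labels do not say what these numbers mean.

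No member differed between genotypes past the threshold. Of the 32 members 0 were called by limma (all tested genes, 0.00599%), and 0 had an unadjusted p under 0.05, against 8.14% of tested genes. The smallest unadjusted limma p of a member was 0.0537, for Acaca. On the recovered reads edgeR also called 0 of 32 (0.00599% of tested genes) and DESeq2 called 0 of the 22 members to which it gave an adjusted p (1.18% of 6972 genes). Unadjusted p was under 0.05 for Acaca with edgeR (1391 of 16681 genes) and for Acaca and Fasn with DESeq2 (959 genes). With limma, Acaca was under 0.05 with TMM scaling (1359 of 16681 genes) and with no filter (2107 of 28627). In the main limma fit the log2 fold changes were positive for 17 members and negative for 15, from -0.23 to 0.20. Their median was 0.003, beside 0.007 over all tested genes. With all 6 libraries, the 95% interval of the fold change lay within 1.5-fold in either direction for 31 of 32 members. Fdps was the exception. Over all tested genes, 11320 of 16681 intervals lay within that range. Changes beyond 1.5-fold lay outside those 31 intervals.

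**Figure D2:**
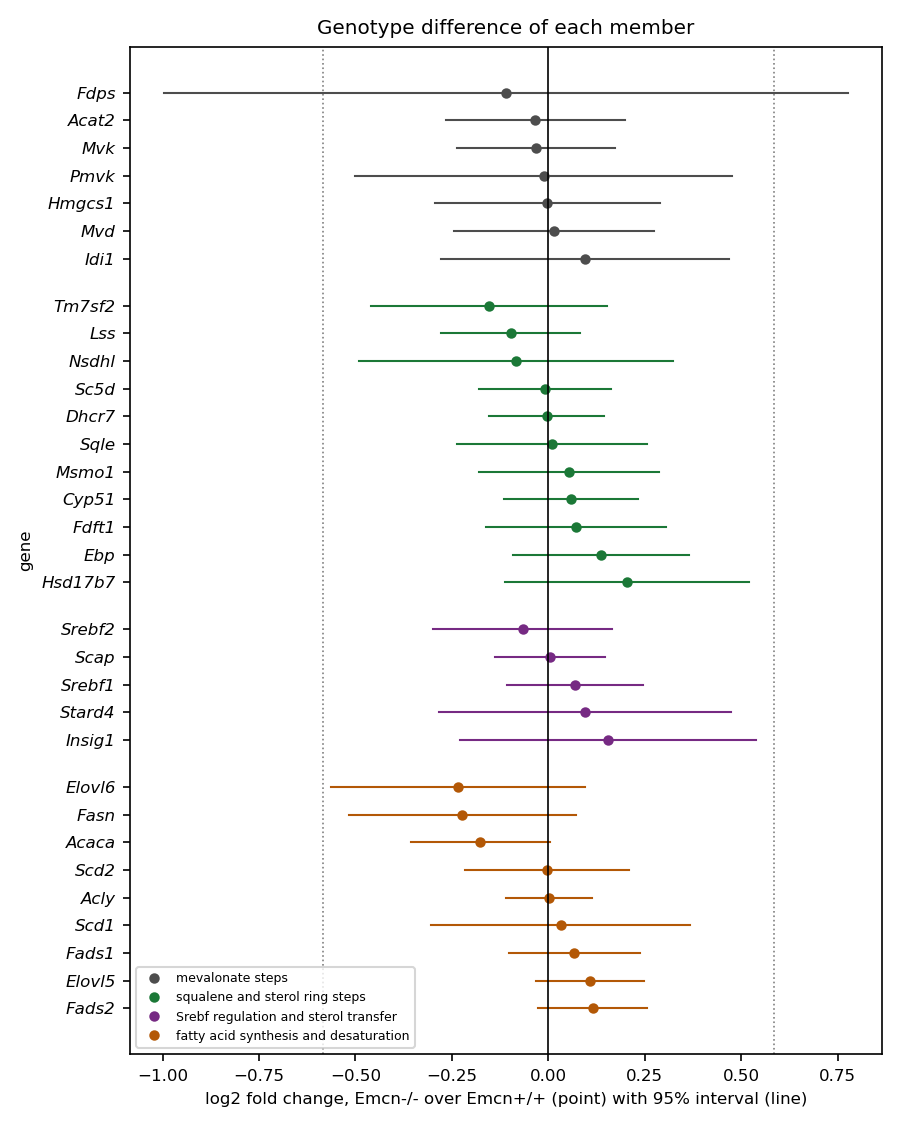
Log2 fold change of each member, Emcn-/- over Emcn+/+ (points), with its 95% interval from limma (lines), by role; dotted lines mark 1.5-fold. All 32 intervals cross 0, and the interval of Fdps is the 1 that passes a dotted line.

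The mevalonate steps gave 2 positive and 5 negative fold changes, with a median of -0.01 and 0 called. Hmgcs1, the synthase that makes HMG-CoA, had 1668, 1559 and 1561 normalised reads in Emcn-/- against 1804, 1805 and 1255 in Emcn+/+ libraries. The Emcn-/- libraries lay between the Emcn+/+ ones, with Emcn+/+ replicate 3 lowest of all 6. Its log2 fold change was -0.003 ± 0.13 (SE, limma adjusted p = 0.995). Idi1, the isomerase of the isoprenoid units, was also lowest in Emcn+/+ replicate 3, but its Emcn+/+ replicate 2 lay among the Emcn-/- libraries. It had 290.2, 269.7 and 293 normalised reads in Emcn-/- against 329.8, 283 and 202 in Emcn+/+ (0.09 ± 0.16, limma adjusted p = 0.901). Pmvk, the phosphomevalonate kinase, went another way: it had 549, 584 and 768 normalised reads in Emcn-/- and 542, 508 and 916 in Emcn+/+, so replicate 3 was the highest library of each genotype. Acat2, which joins acetyl-CoA units, Mvk, the mevalonate kinase, and Mvd, the decarboxylase, stayed between 213 and 406 normalised reads in all libraries, with their highest value 1.18 to 1.27 times their lowest.

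The squalene and sterol ring steps gave 6 positive and 5 negative fold changes, with a median of 0.01 and 0 called. Sqle, squalene epoxidase, had 936, 941 and 908 normalised reads in Emcn-/- against 1035, 995 and 760.1 in Emcn+/+ libraries. Lss, which closes the ring, had 712, 723 and 719.9 in Emcn-/- against 807, 819 and 686 in Emcn+/+. In both genes the 3 Emcn-/- libraries lay close together, between the first 2 Emcn+/+ libraries above and the third below. Fdft1, squalene synthase, showed the same order, with 884, 905 and 869 in Emcn-/- against 934, 906 and 707 in Emcn+/+. Hsd17b7, a ketosteroid reductase of the late steps, had the highest fold change of the 32: 221, 231 and 211 normalised reads in Emcn-/- against 209, 215 and 156 in Emcn+/+ (0.20 ± 0.14, limma adjusted p = 0.716). The genotypes overlapped, and without Emcn+/+ replicate 3 the value was 0.06. Dhcr7, a late reductase, varied least among the sterol genes, with 699 ± 26.6 in Emcn-/- and 701 ± 27.8 in Emcn+/+ (SD, n = 3 each). Cyp51 and Msmo1, which remove methyl groups, Ebp, the sterol isomerase, and Sc5d, a desaturase, averaged between 266 and 788 normalised reads in each genotype, with highest-to-lowest ratios of 1.15 to 1.30. Tm7sf2 and Nsdhl, a reductase and a dehydrogenase of the ring, were the 2 sterol genes lowest in Emcn-/- replicate 3 (117 and 192 normalised reads), against 132 and 199.8 in Emcn+/+ replicate 3.

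The 4 regulators and the sterol carrier gave 4 positive and 1 negative fold changes, with a median of 0.07 and 0 called. Srebf2, the sterol branch factor, had 2433, 2308 and 2149 normalised reads in Emcn-/- against 2671, 2565 and 2022 in Emcn+/+ (-0.07 ± 0.10, limma adjusted p = 0.882). Srebf1 had 2143, 2259 and 1828 in Emcn-/- against 1946, 1988 and 1982 in Emcn+/+ (0.07 ± 0.08, adjusted p = 0.828). Neither factor separated the genotypes, and in Emcn-/- both were lowest in replicate 3. Insig1, itself a target of the pathway it restrains, had 928, 882 and 741 normalised reads in Emcn-/- against 930.3, 831 and 568 in Emcn+/+ (0.15 ± 0.17, adjusted p = 0.821). Stard4, a carrier that moves cholesterol between membranes, had 511, 450.2 and 410.3 in Emcn-/- against 503, 481 and 320.0 in Emcn+/+ (0.10 ± 0.17, adjusted p = 0.901). For both, replicate 3 was the lowest library of each genotype, and the genotypes overlapped. Scap stayed level, at 1954 ± 96.7 normalised reads in Emcn-/- retinas against 1949 ± 112 in Emcn+/+ retinas (SD, n = 3 each).

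The fatty acid genes held both the 1 member whose genotypes did not overlap and the 3 lowest fold changes. In GRCm38 these genes lie at chr9:77917364-77984519 on the plus strand (Elovl5), chr11:84129672-84401651 on the plus strand (Acaca), chr11:120805846-120824547 on the minus strand (Fasn) and chr3:129532355-129638495 on the plus strand (Elovl6). Elovl5, an elongase of polyunsaturated fatty acids, had 690.3, 669 and 711 normalised reads in Emcn-/- against 653, 639 and 628 in Emcn+/+ libraries. All 3 Emcn-/- libraries lay above all 3 Emcn+/+ libraries, by a small margin (0.11 ± 0.06, 95% interval -0.03 to 0.25, limma adjusted p = 0.682). It was 1 of 32 members without overlap, against 14.4% of tested genes in either direction, so the share among the members was below that of all genes. Fads2 had the smallest p among members with a positive fold change, with 1628, 1656 and 1538 normalised reads in Emcn-/- against 1586, 1421 and 1447 in Emcn+/+ (0.12 ± 0.06, adjusted p = 0.666).

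Acaca, Fasn and Elovl6 act in sequence: Acaca makes malonyl-CoA, Fasn builds palmitate from it and Elovl6 lengthens palmitate. These 3 had the lowest fold changes of the members. Acly, which makes cytosolic acetyl-CoA, was at 0.002 on the log2 scale, and the desaturase genes Scd1 and Scd2 were at 0.03 and -0.003. Acaca had 1693, 1573 and 1686 normalised reads in Emcn-/- against 1951, 2008 and 1652 in Emcn+/+ (-0.18 ± 0.08, limma adjusted p = 0.616). Fasn had 2681, 2238 and 2325 in Emcn-/- against 3136, 3154 and 2244 in Emcn+/+ (-0.22 ± 0.13, adjusted p = 0.682). Elovl6 had 1336, 1204 and 1190.3 in Emcn-/- against 1761, 1578 and 1122 in Emcn+/+ (-0.23 ± 0.15, adjusted p = 0.696). In all 3 genes each Emcn-/- library lay below Emcn+/+ replicates 1 and 2, while Emcn+/+ replicate 3 lay among or below the Emcn-/- values. With a trend on exon length removed from each library the fold changes were -0.031 for Acaca, -0.14 for Fasn and -0.21 for Elovl6. Gm5182, the copy of Acaca, had 262, 257 and 269 normalised reads in Emcn-/- against 282, 298 and 250.1 in Emcn+/+.

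Between libraries of like title number the 3 genes gave unlike values. Emcn-/- replicates 1 and 2 had 0.825, 0.782 and 0.761 times the mean of Emcn+/+ replicates 1 and 2 for Acaca, Fasn and Elovl6. Emcn-/- replicate 3 over Emcn+/+ replicate 3 gave 1.02, 1.04 and 1.06. With a term for the title-number series the unadjusted limma p was 0.0297 for Acaca, 0.0348 for Fasn and 0.0372 for Elovl6, these 3 being the members under 0.05, against 12.5% of tested genes. None passed adjustment (0.352, 0.364 and 0.371).

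**Figure D3:**
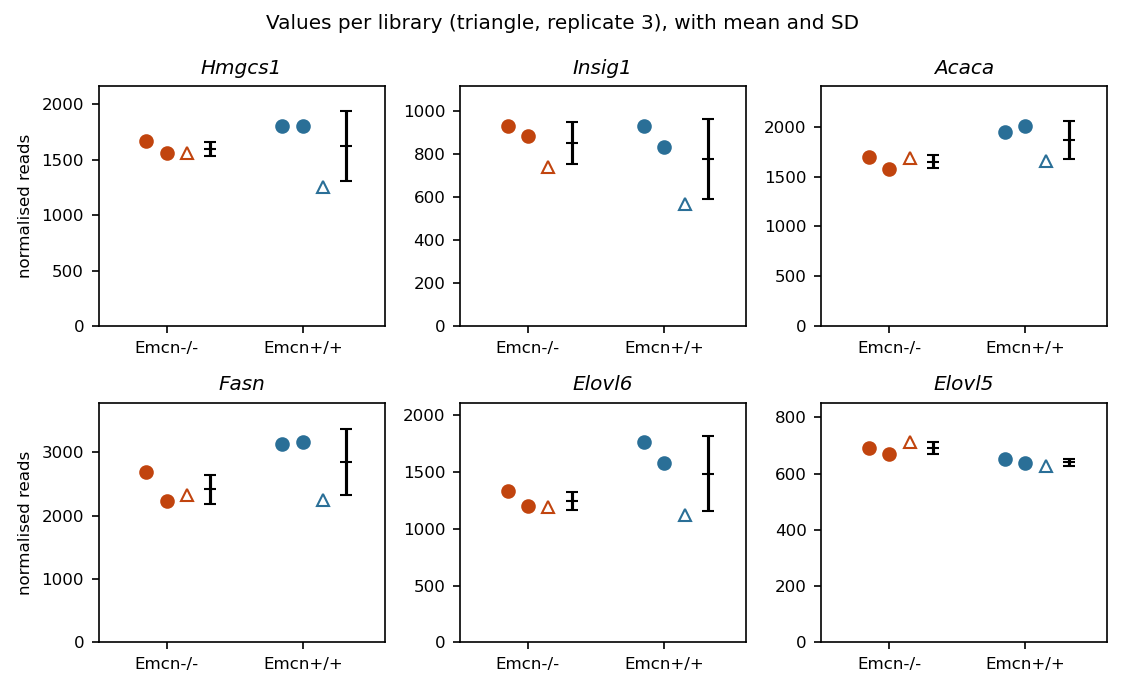
Normalised reads per library for 6 members, Emcn-/- left of Emcn+/+, with replicate 3 of each genotype as open triangles and the mean ± SD as bars. Emcn+/+ replicate 3 is the lowest Emcn+/+ library in all 6 panels, and Elovl5 is the 1 panel in which the genotypes do not overlap.

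The remaining fatty acid members did not separate the genotypes. Scd2 had 7609, 7061 and 6452 normalised reads in Emcn-/- against 8021, 6880.0 and 6319 in Emcn+/+, again with replicate 3 lowest in each genotype. Scd1 ranged from 157 to 203 in Emcn-/- and from 151 to 196 in Emcn+/+. Fads1, the delta-5 desaturase, was at 1056 ± 18.9 in Emcn-/- and 1011 ± 94.6 in Emcn+/+, and Acly at 5139 ± 109 and 5132 ± 147 (SD, n = 3 each). Acly had the narrowest spread of all members, with its highest library 1.06 times its lowest.

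Apart from genotype, the members shared a pattern by library. Emcn+/+ replicate 3 was the lowest of the 6 libraries for 21 of the 32 members, against 17.7% of all tested genes, and was below both other Emcn+/+ libraries for 26 members, against 37.0% of tested genes. The median member was 0.24 lower there on the log2 scale than the mean of Emcn+/+ replicates 1 and 2, beside a median of 0.005 higher over all tested genes. The lowest-library count by role was 4 of 7 mevalonate genes, 8 of 11 sterol ring genes, 4 of 5 regulators and 5 of 9 fatty acid genes. Leaving Fdps aside, the 5 largest drops against the mean of replicates 1 and 2 were 35.5% for Insig1, 35.0% for Stard4, 34.0% for Idi1, 32.8% for Elovl6 and 30.4% for Hmgcs1. In the other direction, Emcn+/+ replicate 3 was the highest library for 2 members, Pmvk and Acly. Emcn-/- replicate 3 was below both other Emcn-/- libraries for 17 members, against 34.2% of tested genes, with a median member 0.07 lower. The medians of the members relative to their own 6-library mean were 0.04, 0.03 and -0.04 in Emcn-/- replicates 1, 2 and 3 and 0.10, 0.05 and -0.15 in Emcn+/+ replicates 1, 2 and 3. These medians overlapped between the genotypes.

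**Figure D4:**
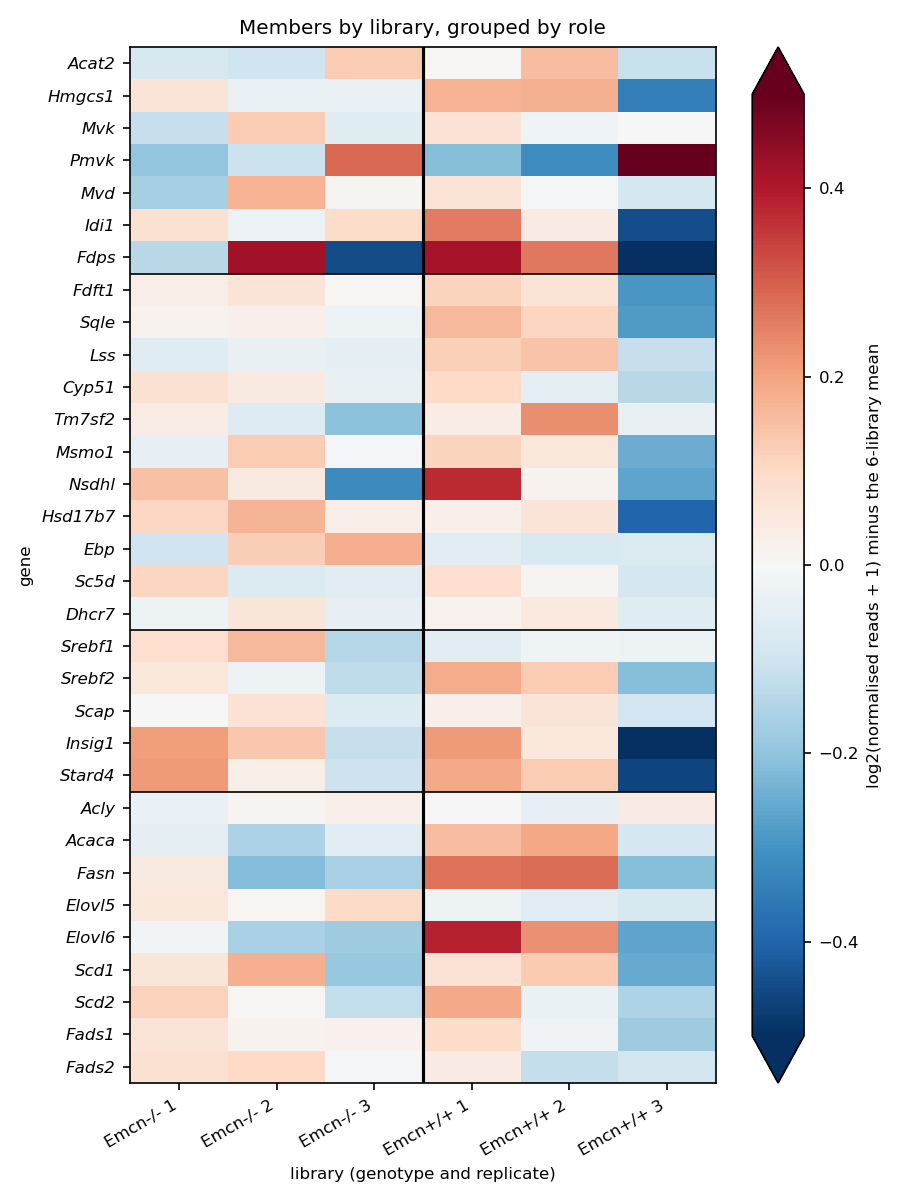
Each member's log2(normalised reads + 1) minus its mean over the 6 libraries, by role from mevalonate steps (top) to fatty acid genes (bottom), with Emcn-/- on the left; colours are capped at 0.5 in either direction. The Emcn+/+ replicate 3 column is blue (lower) for most rows, with Pmvk red, while the Emcn-/- columns are mostly paler.

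Cell markers also moved between these libraries. Of 9 Müller glia markers, 5 were lowest in Emcn+/+ replicate 3, and the list summed to 19940 to 23354 normalised reads per kb in Emcn-/- and 17663 to 21720 in Emcn+/+, with Emcn+/+ replicate 3 at the lower end (exact permutation p = 0.2, two-sided). Glul, the glutamine synthetase gene of these cells, had 37744, 35615 and 28856 normalised reads in Emcn-/- against 34454, 30533 and 22486 in Emcn+/+, with replicate 3 lowest in each genotype, as for Insig1. Yet Vim, a filament gene of the same list, was highest in replicate 3 of each genotype, at 3939.6, 4035 and 5444 in Emcn-/- and 3823, 3340.4 and 6812 in Emcn+/+. Oligodendrocyte markers, of a cell type rich in sterol synthesis, summed to 251 to 293 per kb in Emcn-/- and 211 to 295 in Emcn+/+, with 5 of 12 passing the filter and Mobp, Opalin and Olig1 near 0. The endothelial list summed to 773 to 1404 per kb in Emcn-/- and 1254 to 1364 in Emcn+/+ (exact permutation p = 0.7, two-sided). Of its 7 genes, 6 had a negative fold change and 1 a positive one, with a median of -0.25 and 0 called. The microglial list summed to 235 to 246 per kb in Emcn-/- and 213 to 335 in Emcn+/+. The part of any of these in the library pattern was not tested.

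Without Emcn+/+ replicate 3 the picture of the members changed. The median log2 fold change was -0.06, with 24 of 32 negative. Over all genes the median was 0.010, with 8025 of 16681 negative. Elovl6 was then called (-0.42 ± 0.07, limma adjusted p = 0.0426), 1 of 32 members against 0.905% of genes, and Fasn stood just outside the threshold (-0.39 ± 0.08, 0.0503) with Acaca behind it (-0.26 ± 0.06, 0.0693). Without Emcn+/+ replicate 1 instead, the values moved the other way, to -0.10 for Elovl6 and -0.14 for Fasn, and without Emcn+/+ replicate 2 Fasn was at -0.14. The members as a set also moved the other way without Emcn+/+ replicate 1. Of the 32, 24 were then positive, with a median of 0.07, beside 0.005 over all genes. Unadjusted p was under 0.05 without Emcn+/+ replicate 3 for 6 members (Acaca, Elovl6, Fasn, Hmgcs1, Lss and Srebf2), against 17.0% of genes. In the same libraries the genotypes did not overlap, lower in Emcn-/-, for 8 members (those 6, Fdft1 and Sqle), against 16.9% of genes in that direction. A further 2 members, Elovl5 and Pmvk, did not overlap and were higher in Emcn-/-. The share of all genes in the higher direction was not worked out. Idi1, Insig1 and Stard4 turned negative without that library, at -0.10, -0.06 and -0.11. Leaving out any other library called 0 members.

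Genes around the pathway gave no call by limma either. Of 13 genes that process or degrade the Srebf machinery, 8 had positive fold changes, with a median of 0.04. Insig2, a relative of Insig1, had 716, 742 and 751 normalised reads in Emcn-/- against 695, 688 and 652 in Emcn+/+, without overlap (0.12 ± 0.06, limma adjusted p = 0.658).

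A list of liver X receptors, their targets and genes of sterol export and handling held 13 tested genes. Of these, 7 were positive, with a median of 0.005. Abca1, the pump that loads cholesterol onto lipoproteins, had 838, 779 and 815 normalised reads in Emcn-/- against 1011, 945 and 1109.5 in Emcn+/+ libraries. All 3 Emcn-/- libraries lay below all 3 Emcn+/+ libraries (-0.33 ± 0.07). It did not pass with limma (adjusted p = 0.376) or edgeR (adjusted p = 0.389), both adjusted over 16681 genes. It passed with DESeq2, adjusted over 6972 genes (adjusted p = 0.0455). With the length trend removed its log2 fold change was -0.26 (limma adjusted p = 0.668). By title-number series, Emcn-/- replicates 1 and 2 had 0.827 times the Abca1 mean of Emcn+/+ replicates 1 and 2. Emcn-/- replicate 3 over Emcn+/+ replicate 3 gave 0.735. That last ratio is 1 library against 1, and Emcn+/+ replicate 3 was the 1 library with reads typical of a female. Npc2, a lysosomal cholesterol carrier, had 986, 1012 and 1055 in Emcn-/- against 864, 796 and 1028 in Emcn+/+ (0.19 ± 0.09, limma adjusted p = 0.638).

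In the isoprenoid branches 6 of 11 genes were positive, with a median of 0.007. Pggt1b, a subunit of the enzyme that attaches geranylgeranyl groups to proteins, had 1024, 974 and 964 normalised reads in Emcn-/- against 1145, 1089 and 1069 in Emcn+/+, without overlap (-0.16 ± 0.06, limma adjusted p = 0.549, or -0.065 with the length trend removed). Rabggta, a subunit of the transferase that adds such groups to Rab proteins, also did not overlap but was higher, at 421, 412 and 443 in Emcn-/- against 384, 409.7 and 377 in Emcn+/+ (0.12 ± 0.08, limma adjusted p = 0.696). It was named after its values were seen. Pdss2, of coenzyme Q side chain synthesis, had -0.23 ± 0.14 (adjusted p = 0.690).

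Of 20 genes that supply or elongate fatty acids, 13 were positive, with a median of 0.06. Of the 20, 4 (Elovl4, Fads3, Me1 and Tecr) did not overlap, all higher in Emcn-/-. Over all tested genes, 1248 of 16681 did not overlap and were higher in Emcn-/-. Fads3, which lies near Fads1 and Fads2 on chromosome 19, had 444, 455 and 565 normalised reads in Emcn-/- against 422, 348 and 427 in Emcn+/+ (0.29 ± 0.12, limma adjusted p = 0.594). Tecr, the reductase that ends each elongation cycle, had 2829.5, 2706 and 2773 in Emcn-/- against 2602, 2541 and 2547 in Emcn+/+ (0.11 ± 0.05, adjusted p = 0.599). Of 19 fatty acid oxidation genes, 14 were positive, with a median of 0.06, beside 8672 of 16681 tested genes positive. Of the 19, 3 (Etfdh, Hadhb and Slc25a20) did not overlap, all higher in Emcn-/-, beside the same 1248 of 16681 tested genes in that direction. Hadhb, a subunit of the mitochondrial trifunctional protein, had 776, 889 and 796 normalised reads in Emcn-/- against 603, 712 and 689 in Emcn+/+, without overlap (0.30 ± 0.09, limma adjusted p = 0.473). Acadl, an acyl-CoA dehydrogenase, had 0.27 ± 0.15 (adjusted p = 0.682).

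**Figure D5:**
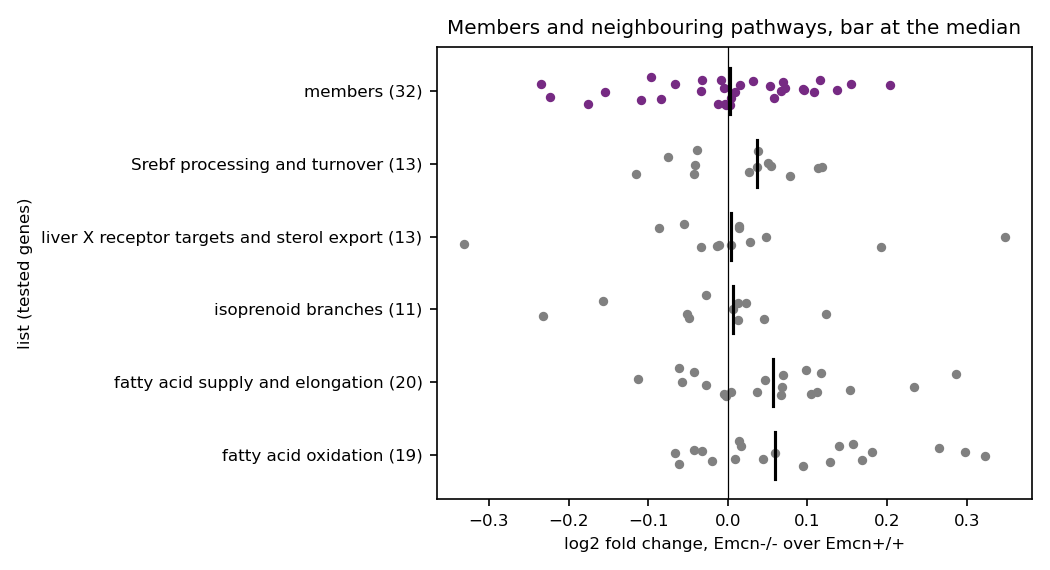
Log2 fold change (Emcn-/- over Emcn+/+) of each tested gene of the member list and of the 5 neighbouring lists, 1 point per gene, with a bar at each list's median. The medians lie between 0.003 and 0.06, and Abca1 at -0.33 is the leftmost point.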

How the data were processed

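Poly-A RNA from 6 mouse retina libraries was profiled, 3 of each genotype, and per the submitters' processing notes reads were placed on GRCm38. The authors' aligner, counter and annotation release were not stated in the labels. In the deposited table each gene has a normalised read signal, made by the authors in a way the labels do not describe. Within a library, dividing every value by 1 common step gave whole reads (within 0.001 of a read), so reads were recovered in that way. Recovered totals were 14865868 to 17087621 reads per library. The value in which 3 reads stand for the limit of a count of 0 was 2.77 to 3.28 normalised reads, covering counting error only.

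Fold changes are Emcn-/- over Emcn+/+ on the log2(value + 1) scale. The main test was limma 3.58.1 in R 4.3.3 with an intensity trend, Benjamini-Hochberg adjusted over 16681 genes kept by edgeR's filter (minimum count 10) and called at an adjusted p under 0.05. edgeR 4.0.16, DESeq2 1.42.0, other scalings, a pseudocount of 5, no filter, a term for the 2 series of title numbers, removal of a length trend and leaving out each library were alternatives. The fit was tested on counts simulated gene by gene, with changes of 1.5-fold or more and no pattern shared by genes within a library. That test therefore does not bear on smaller changes or on the pattern of Emcn+/+ replicate 3. Exon lengths and positions came from GENCODE M21, which held 27390 of the 28627 gene IDs, and copies of at least 95% identity over 200 bases were found with BLAST 2.17.0. Promoter windows were RefSeq's for GRCm38.p6. The members and all lists were chosen with earlier results of these data known. All members are named. Those with an unadjusted p under 0.05 or with genotypes that did not overlap get full statistics, as do the 2 genes with the smallest p of each neighbouring list, and any other member given with a fold change was chosen after its values were seen. For 1 of the neighbouring lists, 1 of these genes is not reported here. The protocol text allows for libraries with and without strand, so strand is unknown.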

Additional observations from a re-analysis of the deposited data

How the results depend on the processing

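No paired analysis was possible because the replicate numbers only follow the order of the samples. The number of genes called was 1 of 16681, Emcn, with limma. DESeq2 called 82 of the 6972 genes to which it gave an adjusted p, and Emcn lay below its filter on mean level (434.5 normalised reads). When 1 library was left out limma called 0 to 151, 151 being without Emcn+/+ replicate 3. The number of members called was 0 under each alternative except when a library was left out, which gave 0 to 1. The number of members whose genotypes did not overlap was 2 to 10 when a library was left out, with 10 reached without Emcn+/+ replicate 3. It was 1 with all libraries, but non-overlap is reached more easily with 2 libraries in a genotype, so these counts do not compare directly. With a library left out, the share over all tested genes was worked out only without Emcn+/+ replicate 3, lower in Emcn-/- (16.9%). The members' median log2 fold change moved by less than the spread between libraries in all alternatives (0.097), from -0.06 to 0.07 when a library was left out, so its sign was not stable. Of 321 repeats over 23 genes whose fold change was recomputed, 9 turned in sign: Hmgcs1 (0.0018 with upper-quartile scaling, 0.08 without Emcn+/+ replicate 1, 0.085 without Emcn+/+ replicate 2, 0.014 without Emcn-/- replicate 2, 0.013 without Emcn-/- replicate 3), Srebf2 (0.010 without Emcn+/+ replicate 1), and, without Emcn+/+ replicate 3, Idi1 (-0.10), Insig1 (-0.055) and Stard4 (-0.11). Over the libraries left out in turn the fold changes spanned -0.18 to 0.085 for Hmgcs1, -0.10 to 0.25 for Idi1, -0.055 to 0.30 for Insig1, -0.19 to 0.010 for Srebf2, -0.11 to 0.21 for Stard4, -0.26 to -0.12 for Acaca, -0.39 to -0.14 for Fasn and -0.42 to -0.10 for Elovl6. Removing the length trend left Acaca at -0.031, Fasn at -0.14, Srebf2 at -0.033 and Pggt1b at -0.065. The cause of these differences between settings was not tested. With 3 libraries a genotype, the fit could not resolve changes inside the 95% intervals given, the widest being that of Fdps.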
